A study of Mus musculus with 7 samples.

Results

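The genes described here are 9 mouse genes of energy supply in striated muscle, that is heart and skeletal muscle: *Ckm*, *Ckb* and *Ckmt2* for creatine kinases, *Pgam2* and *Pygm* for enzymes of glycolysis and glycogen breakdown, *Mb* for myoglobin, *Fabp3* and *Fitm1* for proteins of fatty acid transport and fat storage, and *Ampd1* for a muscle AMP deaminase. They are 9 of the 47729 gene identifiers of the deposited table. The set was chosen by the CPM values of these libraries, because *Ckm*, *Fitm1* and *Pgam2* were higher in every knockout library, so the difference between the genotypes in these 9 genes is described below without a test. RNA was sequenced from aorta of mice labelled as *Mmp19* knockouts (KO, *Mmp19*-/-, 3 libraries) and of wild-type mice (WT, 4 libraries). Genotype is the only factor that the labels give. The labels used here state neither age nor strain nor the stretch of aorta that was taken, nor whether the libraries stand for different mice, so every SD below measures the spread between libraries. *Mmp19* encodes a secreted matrix metalloproteinase.

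Creatine kinase moves a phosphate group between ATP and creatine and so buffers ATP where it is used quickly. Its cytosolic subunits are M, encoded by *Ckm* and typical of heart and skeletal muscle, and B, encoded by *Ckb* and found in brain, smooth muscle and many other cells. Mitochondria of striated muscle carry the form encoded by *Ckmt2*, and those of other tissues the ubiquitous form encoded by *Ckmt1*. In the healthy vessel wall, contraction is the work of smooth muscle, but heart muscle borders the aortic root, and fat, nerves and skeletal muscle lie near the vessel.

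The start regions of 5 of the genes are shown first, because *Ckm*, *Pgam2*, *Fitm1* and *Mb* were higher in KO aorta together and *Ckb*, of the same enzyme family as *Ckm*, was lower. The sequences are RefSeq promoters on GRCm38.p6, 250 bases before to 50 after the annotated start, read 5′ to 3′ on the gene's strand. Capitals mark CAGCTG, an E-box (the motif CANNTG) of the kind bound by the myogenic factors of the MyoD family, and sites that match the MEF2 motif. Neither has been shown here to be bound.
Ckm (chr7:19410844-19411143, plus strand): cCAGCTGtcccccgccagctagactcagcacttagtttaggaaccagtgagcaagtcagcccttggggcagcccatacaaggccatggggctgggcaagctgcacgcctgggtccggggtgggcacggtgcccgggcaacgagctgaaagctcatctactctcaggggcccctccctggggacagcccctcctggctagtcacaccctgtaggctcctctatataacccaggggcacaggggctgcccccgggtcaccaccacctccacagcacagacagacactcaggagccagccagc
Pgam2 (chr11:5803747-5804046, minus strand): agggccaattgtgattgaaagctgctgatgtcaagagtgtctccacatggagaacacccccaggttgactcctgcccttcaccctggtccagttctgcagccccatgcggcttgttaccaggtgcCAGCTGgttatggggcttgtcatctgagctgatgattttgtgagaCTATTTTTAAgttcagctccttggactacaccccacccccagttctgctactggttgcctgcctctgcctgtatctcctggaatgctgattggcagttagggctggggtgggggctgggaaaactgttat
Fitm1 (chr14:55575424-55575723, plus strand): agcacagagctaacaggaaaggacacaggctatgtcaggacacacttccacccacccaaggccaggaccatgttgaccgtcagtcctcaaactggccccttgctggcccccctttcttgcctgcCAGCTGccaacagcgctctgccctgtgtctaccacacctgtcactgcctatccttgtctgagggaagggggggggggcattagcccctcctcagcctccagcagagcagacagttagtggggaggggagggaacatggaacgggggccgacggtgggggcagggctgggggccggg
Mb (chr15:77022738-77023037, minus strand): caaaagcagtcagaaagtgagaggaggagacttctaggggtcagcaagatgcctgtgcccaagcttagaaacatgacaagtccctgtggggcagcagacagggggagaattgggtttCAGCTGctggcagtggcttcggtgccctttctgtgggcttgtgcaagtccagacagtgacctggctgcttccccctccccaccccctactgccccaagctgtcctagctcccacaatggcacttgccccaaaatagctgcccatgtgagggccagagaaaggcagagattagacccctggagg
Ckb (chr12:111672289-111672588, minus strand): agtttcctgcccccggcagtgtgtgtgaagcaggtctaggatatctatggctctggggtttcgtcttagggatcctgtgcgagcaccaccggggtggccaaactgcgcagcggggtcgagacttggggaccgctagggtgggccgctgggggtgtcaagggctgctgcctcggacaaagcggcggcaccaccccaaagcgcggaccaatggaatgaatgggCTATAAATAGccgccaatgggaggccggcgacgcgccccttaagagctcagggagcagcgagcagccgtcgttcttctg

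A promoter was on hand for 8 of the 9 genes, and CAGCTG, which reads the same on both strands, stood in 6 of them: *Ckm*, *Ckmt2*, *Pgam2*, *Fitm1*, *Mb* and *Pygm*. In *Pgam2*, *Fitm1* and *Mb* it began at bases -125, -126 and -133 from the start, in *Ckmt2* at -107 and in *Ckm* at -249. In *Pygm*, which was not higher in KO, it began at -168 and at -8. *Mb* had 3 promoter entries, and the entry with the most annotated starts near it was used. Of all 32851 mouse promoters of the same length, 16.3% held CAGCTG and 72.3% held any CANNTG, and CAGCTG was picked out after the sequences had been read. The MEF2 motif, searched on both strands, was found in *Pgam2* (CTATTTTTAA) and in *Ckb* (CTATAAATAG), against 3.19% of all promoters. In *Ckb* it covers the TATAAA of the promoter, a motif present in 13.6% of all promoters. These are matches of letters in a window, described as such.

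Library totals lay between 68151472 and 76926790 estimated counts, and all 9 genes passed the filter on low counts that left 19188 genes. *Mmp19* itself was still counted in KO, at 25.5, 12.0 and 15.9 CPM, against 24.8, 24.8, 20.7 and 34.7 CPM in WT (log2 fold change -0.56, edgeR adjusted p = 0.368), and from gene counts the covered exons cannot be read. CPM are counts brought to 1 library size by TMM scaling. Among all genes tested, edgeR's quasi-likelihood test called 3 genes higher in KO (0.0156%) and 0 lower at an adjusted p of 0.05. At the same threshold, limma-voom with sample quality weights called 7 and 0, and DESeq2 called 1020 (5.32%) and 586 (3.05%). At an unadjusted p under 0.05, 1904 genes were higher and 1395 lower. Libraries also differed in markers of other cell types, whose values are given beside the results. Smooth muscle markers, which define the labelled tissue, were abundant in all libraries but lower in KO, 4185, 16030 and 8543 CPM in sum in KO-1, KO-2 and KO-3 against 21260 to 23590 CPM in WT. All 12 lay below the WT range in every KO library, where 8.56% of all genes tested did. Heart markers were high in KO-1 and KO-2, skeletal muscle markers in KO-3, macrophage markers in all KO libraries and nerve markers in WT-3.

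Of the 9 genes, 5 were higher in every KO library than in every WT library: *Ckm*, *Ckmt2*, *Pgam2*, *Fitm1* and *Mb*. Across all genes tested, 8.17% had every KO library above every WT library. A pair of the genes, *Ckb* and *Fabp3*, was lower in every KO library, where 8.56% of all genes tested were. The groups overlapped for *Pygm* and *Ampd1*. Taken singly, KO-1 and KO-2 were above every WT library for 5 of the 9 genes each and KO-3 for 6, where 31.3%, 19.7% and 25.4% of all genes tested were. The choice of genes used these values, so nothing is read from the counts. The median log2 fold change of KO over WT was 2.45 for the 9 genes and -0.028 for all genes tested. In whole tissue, more or fewer cells of a type and more or less RNA per cell cannot be told apart.

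**Figure D1:**
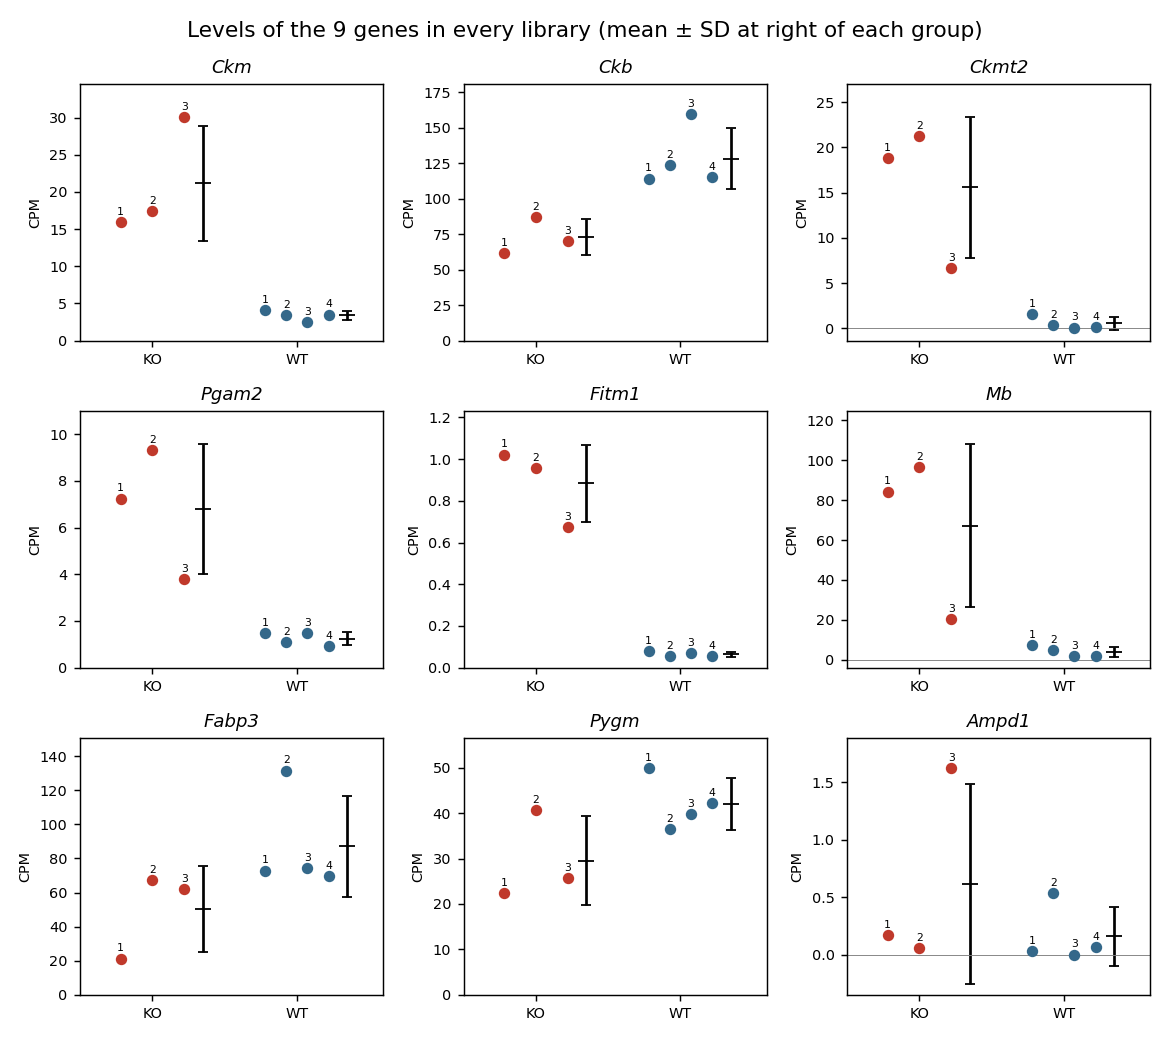
CPM of each of the 9 genes (vertical axes, linear, each with its own scale) in the KO libraries (red) and the WT libraries (blue), numbered by replicate, with mean and SD at the right of each group. *Ckm*, *Ckmt2*, *Pgam2*, *Fitm1* and *Mb* are higher in every KO library, *Ckb* and *Fabp3* lower, and the groups overlap for *Pygm* and *Ampd1*.

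*Ckm* (ENSMUSG00000030399; chromosome 7, 19404776 to 19422841, GRCm38), the cytosolic creatine kinase of striated muscle, read 16.0, 17.5 and 30.1 CPM in KO-1, KO-2 and KO-3, against 4.07, 3.45, 2.48 and 3.49 CPM in WT-1 to WT-4. The lowest KO library was well above the highest WT library, and KO-3 stood apart within KO. The KO mean was 21.2 ± 7.73 CPM (SD, n = 3), the WT mean 3.37 ± 0.660 CPM (SD, n = 4), and the log2 fold change 2.65 (SE 0.28). With KO-3 alone against WT it was 3.14, and without KO-3 it was 2.32. An antisense gene, *A930016O22Rik*, overlaps 451 exonic bases of *Ckm* and had at most 13 counts in a library.

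*Ckb* (ENSMUSG00000001270; chromosome 12, 111669361 to 111672338) was the most abundant creatine kinase in both genotypes and went the other way. It read 61.7, 87.1 and 70.3 CPM in KO, against 114, 124, 160 and 115 CPM in WT. The groups did not overlap, and WT-3, the library rich in nerve markers, was the highest. The means were 73.0 ± 12.9 in KO against 128 ± 21.4 CPM in WT (SD over 3 and 4 libraries), with a log2 fold change of -0.81 (SE 0.17). Within KO, the order of *Ckb* (KO-2, then KO-3, then KO-1) was that of the summed smooth muscle markers. Within WT it was not: *Ckb* was highest in WT-3, where the sum was 21560 CPM, and lowest in WT-1, where the sum was highest, at 23590 CPM. The part of smooth muscle in *Ckb* was not tested.

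*Ckmt2* (ENSMUSG00000021622; chromosome 13, 91853387 to 91876885), the mitochondrial creatine kinase of striated muscle, read 18.8, 21.3 and 6.67 CPM in KO, against 1.58, 0.394, 0.0861 and 0.122 CPM in WT. With a KO mean of 15.6 ± 7.82 CPM (SD, n = 3) and a WT mean of 0.546 ± 0.705 CPM (SD, n = 4), it showed the largest log2 fold change of the 9 genes, 4.84 (SE 1.04). The WT libraries themselves spread widely, with WT-1 far above the others. With KO-3 alone against WT the value was 3.59. Without one or another library it stayed between 4.48 and 6.29.

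The relation of the creatine kinase genes to each other is given per length, as CPM per kilobase of the principal transcript. The 4 genes together came to 60.5, 80.8 and 64.3 CPM per kilobase in KO, against 80.6, 85.8, 114 and 80.2 CPM per kilobase in WT, so that the groups overlapped in the sum. *Ckb* made up 69.2%, 73.3% and 74.3% of this sum in KO, against 96.3%, 97.9%, 95.2% and 97.5% in WT. The rest of the sum in KO was mostly *Ckmt2* in KO-1 (20.9%) and KO-2 (17.7%) and mostly *Ckm* in KO-3 (17.1%). *Ckm* held between 0.794% and 1.85% of the sum in WT, and *Ckmt2* between 0.0508% and 1.32%. *Ckmt1*, the ubiquitous mitochondrial form, held 1.67% or less in KO and reached 3.96% in WT-3. These shares depend on the length used: with the union of all exons, *Ckb* made up 53.9% to 61.0% in KO and 93.5% to 96.4% in WT.

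**Figure D2:**
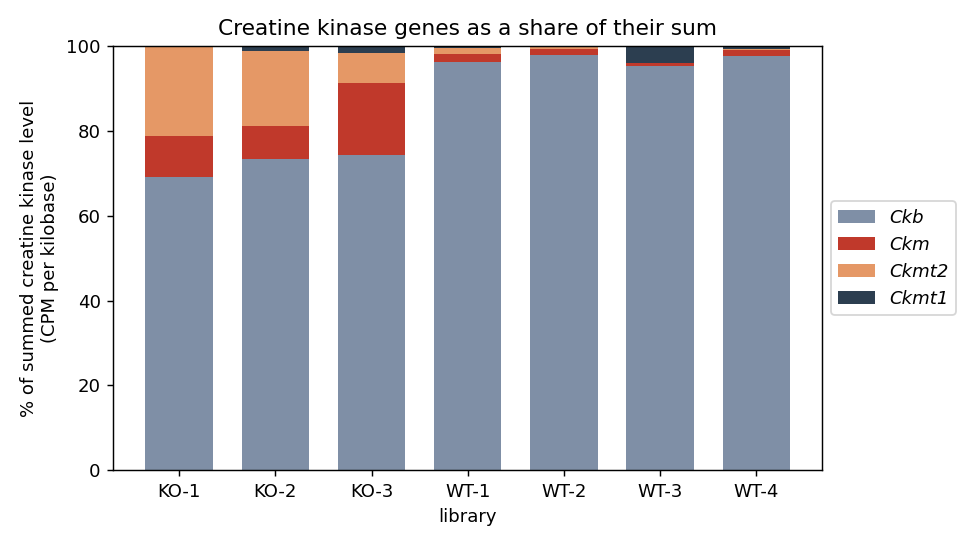
Share of *Ckb*, *Ckm*, *Ckmt2* and *Ckmt1* in the summed CPM per kilobase of the 4 genes (vertical axis, percent), 1 stacked bar per library, KO left of WT. *Ckb* fills 69.2% to 74.3% of the KO bars and 95.2% to 97.9% of the WT bars, with *Ckmt2* taking more of the rest in KO-1 and KO-2 and *Ckm* in KO-3.

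*Pgam2* (ENSMUSG00000020475; chromosome 11, 5801640 to 5803733), the muscle phosphoglycerate mutase of glycolysis, read 7.24, 9.31 and 3.79 CPM in KO, against 1.47, 1.08, 1.48 and 0.923 CPM in WT. The means were 6.78 ± 2.79 in KO against 1.24 ± 0.280 CPM in WT (SD over 3 and 4 libraries), with a log2 fold change of 2.45 (SE 0.36), with KO-3 nearest to WT. KO-3 alone against WT gave 1.59. *Pgam1*, the general form of the enzyme, averaged 193 ± 36.0 in KO against 202 ± 23.9 CPM in WT and did not pass the test (edgeR adjusted p = 0.869). Per length, *Pgam2* was 7.27% ± 3.84 of both mutases in KO and 1.31% ± 0.411 in WT.

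*Pygm* (ENSMUSG00000032648; chromosome 19, 6384399 to 6398459), the muscle glycogen phosphorylase that frees glucose units from glycogen, did not follow *Pgam2*. It read 22.4, 40.6 and 25.6 CPM in KO, against 49.9, 36.4, 39.8 and 42.2 CPM in WT. KO-1 and KO-3 lay below every WT library and KO-2 lay within the WT range, a log2 fold change of -0.51 (SE 0.22). The brain form *Pygb* read 124 ± 21.8 in KO against 171 ± 10.3 CPM in WT, without overlap, and did not pass edgeR's test (adjusted p = 0.197, DESeq2 0.0384). The share of *Pygm* in the pair was 24.1% ± 3.05 in KO and 25.1% ± 3.05 in WT, closer together than the spread between libraries. Beside the liver form *Pygl* its share was 18.8% ± 8.13 in KO and 31.1% ± 7.23 in WT.

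*Mb* (ENSMUSG00000018893; chromosome 15, 77015487 to 77050670), which encodes the oxygen-binding protein of striated muscle, had the largest difference in mean CPM of the 9 genes. It read 84.4, 96.8 and 20.4 CPM in KO, against 7.18, 4.66, 1.79 and 1.87 CPM in WT. KO-3 was far below KO-1 and KO-2 but still above every WT library. The KO mean was 67.2 ± 41.0 CPM and the WT mean 3.88 ± 2.57 CPM (SD, n = 3 and 4), and the log2 fold change was 4.12 (SE 0.70) over all libraries and 2.38 with KO-3 alone against WT. *Apol6*, on the opposite strand, shares 64 exonic bases with *Mb* and read 47.1, 53.0 and 66.8 CPM in KO, against 51.2 to 66.8 CPM in WT, where *Mb* was near its lowest. *Cygb*, a globin of fibroblasts and other cells, was lower in every KO library (92.3 ± 8.25 CPM in KO, 124 ± 8.96 CPM in WT, edgeR adjusted p = 0.175, DESeq2 0.00940). Per length, *Mb* was 67.8%, 66.9% and 32.1% of *Mb* and *Cygb* together in KO, against 11.4%, 7.83%, 2.72% and 3.05% in WT.

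*Fabp3* (ENSMUSG00000028773; chromosome 4, 130308595 to 130315463), the heart fatty acid-binding protein, which is also made in brown fat, read 21.3, 67.4 and 61.9 CPM in KO, against 72.8, 131, 74.2 and 69.7 CPM in WT. KO-2 missed the lowest WT library by little, while KO-1 was far below it and WT-2 far above the rest. The log2 fold change was -0.79 (SE 0.42), and -0.44 without KO-1. *Fabp5*, the epidermal form, averaged 56.8 ± 22.3 in KO against 30.3 ± 11.7 CPM in WT with overlap (edgeR adjusted p = 0.294), and *Fabp4*, the fat cell form, did not pass the test either (adjusted p = 0.820). *Fabp3* and *Zcchc17* share 81 exonic bases on opposite strands, and *Zcchc17* stayed between 20.5 and 24.5 CPM in the 7 libraries.

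*Fitm1* (ENSMUSG00000022215; chromosome 14, 55575617 to 55576954), a protein of the endoplasmic reticulum that promotes fat storage in droplets and is made mainly in striated muscle, was scarce. It had 84, 67 and 52 counts in KO, against 5, 4, 5 and 4 counts in WT. As CPM that was 1.02, 0.957 and 0.673 in KO, against 0.0784, 0.0563, 0.0717 and 0.0543 in WT. *Fitm1* passed the filter on low counts through its KO libraries alone. Relative to their mean, its libraries were closer together within each genotype than those of *Mb* or *Ckmt2*, and the log2 fold change was 3.73 (SE 0.38), between 3.31 with KO-3 alone and 3.96 with KO-1 and KO-2 against WT-1, WT-2 and WT-4. Its antisense neighbour *Gm15932*, which shares 109 exonic bases with it, was between 0.194 and 0.298 CPM in KO and between 0.258 and 0.324 CPM in WT. *Fitm2*, the form of fat and other tissues, did not pass the test (81.2 ± 24.6 CPM in KO, 86.4 ± 16.9 CPM in WT, edgeR adjusted p = 0.877). Per length, *Fitm1* was 4.67% ± 2.22 of both forms in KO and 0.320% ± 0.100 in WT.

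*Ampd1* (ENSMUSG00000070385; chromosome 3, 103074014 to 103099720), which turns AMP into IMP in working skeletal muscle, rested on single libraries. It had 14, 4 and 125 counts in KO, against 2, 38, 0 and 5 counts in WT. Only KO-3 and WT-2 had more than 14 counts. For WT-3 a count of 0 allows up to 0.043 CPM (3 counts, counting error only), if each count stands for a separate read, which was not determined. The log2 fold change was 1.94 (SE 1.50) over all libraries and -0.46 without KO-3. *Ampd2* and *Ampd3*, the forms of other cells, did not pass the test (edgeR adjusted p = 0.648 and 0.853).

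Set side by side per length, *Fabp3*, *Mb* and *Ckb* were the most abundant of the 9 genes in KO, at 61.0 ± 30.6, 60.8 ± 37.1 and 49.6 ± 8.80 CPM per kilobase (SD, n = 3), which differed by less than their spread. In WT the order was *Fabp3* at 106 ± 36.0, *Ckb* at 87.1 ± 14.5 and then, well below, *Pygm* at 14.6 ± 1.99 CPM per kilobase (SD, n = 4). *Mb* (3.51 ± 2.33), *Pgam2* (1.48 ± 0.333) and *Ckm* (1.23 ± 0.241) followed in WT, neighbours whose differences did not exceed their spread. *Ckmt2*, *Ampd1* and *Fitm1* averaged 0.368, 0.0677 and 0.0671 CPM per kilobase in WT. By this level, *Ckm* stood at percentile 62.5 of all genes tested in KO and at 32.9 in WT, and *Mb* at 94.9 and 47.4. *Ckb* stood at 93.6 in KO and 96.3 in WT.

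Markers of heart muscle moved with *Mb* and *Ckmt2*. The 16 markers of the heart list summed to 1037, 1629 and 57.1 CPM in KO, against 190, 136, 119 and 107 CPM in WT. In KO-1, 15 of the 16 were above every WT library, in KO-2 all 16, and in KO-3 only 1, with 8 below. Of all genes tested, 31.3%, 19.7% and 25.4% were above every WT library in KO-1, KO-2 and KO-3. *Nppb* was at 0 in KO-3 and in every WT library, and *Nppa* at 0 in KO-3. *Myh6*, the heart myosin heavy chain, read 411, 500 and 0.738 CPM in KO, against 47.0, 24.9, 3.63 and 2.35 CPM in WT. As with *Myh6*, *Mb* and *Ckmt2* were higher in WT-1 and WT-2 than in WT-3 and WT-4. KO-3 was the exception, since its heart marker sum lay below every WT library while *Mb* and *Ckmt2* lay above.

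Markers of skeletal muscle moved with *Ckm* and *Ampd1* in KO-3. *Casq1*, on the skeletal list, was lower in all KO libraries like the smooth muscle markers (12.7, 87.7 and 45.6 CPM in KO, 135 to 196 CPM in WT). *Mybpc2*, on the same list and named after its values were seen, was lower in all KO libraries too. It read 5.60, 2.03 and 5.32 CPM in KO, against 5.84 to 8.45 CPM in WT. The full list of 18 summed to 51.3, 115.6 and 330.5 CPM in KO, against 166 to 223 CPM in WT. Without *Casq1*, a choice made after its values were seen, the other 17 markers summed to 38.6, 27.9 and 285 CPM in KO, against 27.0 to 31.2 CPM in WT. Of the full list of 18, 16 were above every WT library in KO-3, 4 in KO-1 and 2 in KO-2, where 25.4%, 31.3% and 19.7% of all genes tested were. *Mybpc1* was at 0 in KO-1, KO-2, WT-2, WT-3 and WT-4. *Ckm* was also higher than in WT in KO-1 and KO-2, where most of these markers were not. Of 16 markers that heart and skeletal muscle share, 9 were above every WT library in KO-1, 10 in KO-2 and 5 in KO-3. Of all genes tested, 31.3%, 19.7% and 25.4% were, so the count in KO-3 was near that share. The log2 fold change was above 0 for 12 of the 16 (median 0.84), where it was for 46.9% of all genes tested. *Ttn*, *Trdn*, *Smpx* and *Xirp2* were above WT in every KO library, where 8.17% of all genes tested were. The sum of the 16, 454, 922 and 358 CPM in KO against 818 to 1110 CPM in WT, went the other way, and *Myom1*, at 119, 457 and 213 CPM in KO against 568 to 801 CPM in WT, made up most of it in WT. The 4 genes above WT were picked out after their values were seen. The part of heart and skeletal muscle in the values of the 9 genes was not tested.

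**Figure D3:**
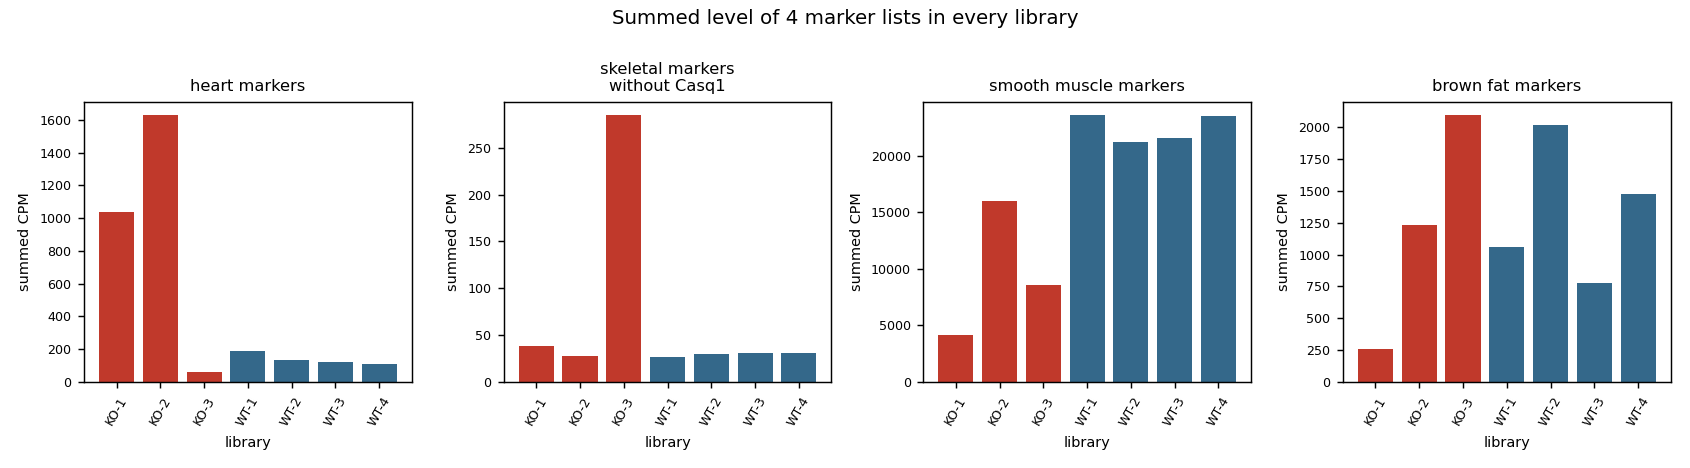
Summed CPM of 4 marker lists in every library (vertical axes, linear from 0), KO (red) left of WT (blue). Heart markers are highest in KO-1 and KO-2 (1037 and 1629 CPM), skeletal markers without *Casq1* in KO-3 (285 CPM), smooth muscle markers are lower in all KO libraries, and brown fat markers overlap. With *Casq1*, not drawn, the skeletal sum was 51.3, 115.6 and 330.5 CPM in KO, against 166 to 223 CPM in WT.

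*Fabp3* followed the brown fat markers in some libraries. The 8 brown fat markers summed to 258, 1236 and 2096 CPM in KO, against 1056, 2021, 775 and 1477 CPM in WT, so that KO-1 was the lowest KO library and WT-2 the highest WT library, as for *Fabp3*. KO-3 had the highest brown fat sum of the 7 libraries but less *Fabp3* than any WT library. *Cpt1b*, the muscle and brown fat form of the carnitine transferase that brings fatty acids into mitochondria, read 37.5, 196 and 276 CPM in KO, against 254, 391, 158 and 263 CPM in WT. Macrophage markers summed to 4058, 708 and 1297 CPM in KO, against 319 to 552 CPM in WT. All 12 were above every WT library in every KO library, where 8.17% of all genes tested were. Mitochondrially encoded transcripts summed to 50910, 116200 and 133000 CPM in KO, against 104500 to 156200 CPM in WT. White fat (3764 to 6884 CPM in KO, 3934 to 7034 CPM in WT), fibroblast (2652 to 3584 CPM in KO, 2658 to 3489 CPM in WT) and endothelial markers (924 to 1586 CPM in KO, 1504 to 1648 CPM in WT) overlapped. Blood markers reached 7184 CPM in KO-3, against 638 to 2722 CPM in WT. Nerve markers reached 1513 CPM in WT-3 and 229 CPM in KO-3, against 37.4 to 66.8 CPM in the other libraries. The part of these cells in the results was not tested.

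**Figure D4:**
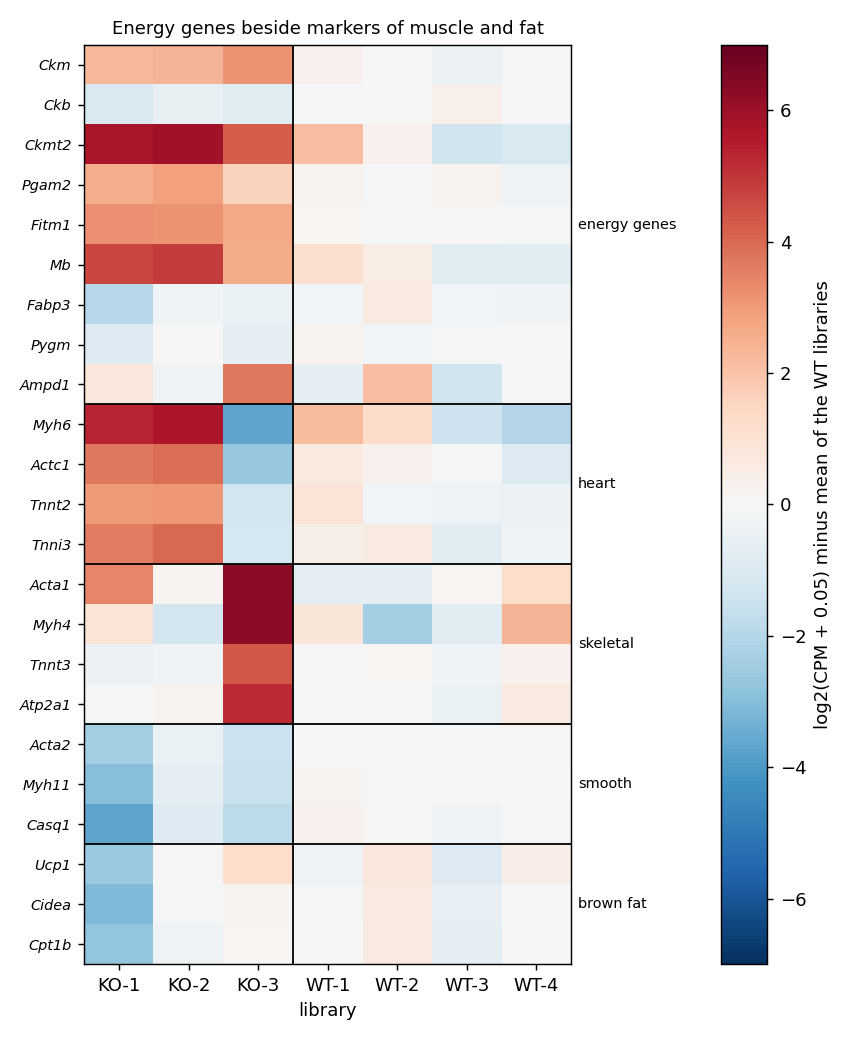
Log2 of CPM plus 0.05, minus the mean of the WT libraries (colour), for the 9 genes and for markers of heart, skeletal muscle, smooth muscle and brown fat (rows) in each library (columns, KO left of WT), with *Casq1* drawn beside the smooth muscle markers and *Cpt1b* beside those of brown fat. The heart markers drawn, picked from the list of 16, are red in KO-1 and KO-2 and blue in KO-3. In KO-3, 8 of the 16 heart markers lay below every WT library and 1 above. The skeletal markers drawn, also picked from their list, are deep red in KO-3, and *Acta1* is red in KO-1 too (3.42). In KO-3, 16 of the 18 skeletal markers lay above every WT library and 2 below. *Ckm*, *Ckmt2*, *Pgam2*, *Fitm1* and *Mb* are red in all KO libraries.

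The other genes of these pathways did not move as a block. Of 128 listed genes that are not among the 9, 123 were tested, and 0 passed edgeR's test in either direction. At an unadjusted p under 0.05, 6 were higher (4.88%, against 9.92% of all genes tested) and 10 lower (8.13%, against 7.27%). Limma-voom called 0, and DESeq2 called 2 higher (1.63%, against 5.32%) and 5 lower (4.07%, against 3.05%). Every KO library was above every WT library for 3 of the 123 (2.44%, against 8.17% of all genes tested) and below for 11 (8.94%, against 8.56%). Their median log2 fold change was -0.11, beside -0.028 for all genes tested, and 42 were positive (34.1%, against 46.9% of all genes tested).

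In the list of phosphate transfer, the creatine transporter *Slc6a8* read 61.5 ± 8.18 in KO against 75.3 ± 11.6 CPM in WT (edgeR adjusted p = 0.375), and *Ak5*, an adenylate kinase, was above WT in every KO library at low level (2.54 ± 0.964 CPM in KO, 1.16 ± 0.422 CPM in WT, adjusted p = 0.235). The median of its 9 tested genes was -0.02. Among 29 genes of glycogen use and glycolysis, 1 had every KO library above WT (3.45%, against 8.17% of all genes tested) and 5 had every KO library below (17.2%, against 8.56%). The 1 above was *Eno3*, the muscle enolase, at 15.4, 20.8 and 12.7 CPM in KO, against 10.4, 8.98, 9.12 and 10.7 CPM in WT (log2 fold change 0.74, SE 0.19, edgeR adjusted p = 0.178, DESeq2 0.0101). Those below were the phosphofructokinases *Pfkp* and *Pfkm*, the phosphorylase *Pygb* and the phosphorylase kinase subunits *Phka2* and *Phkb*, the last 2 named after their values were seen. *Pfkp* averaged 112 ± 20.4 in KO against 183 ± 16.9 CPM in WT (log2 fold change -0.71, edgeR adjusted p = 0.166, DESeq2 0.00131). *Pfkm*, the muscle form, averaged 50.2 ± 13.7 in KO against 83.9 ± 6.21 CPM in WT (log2 fold change -0.74, edgeR adjusted p = 0.174, DESeq2 0.0103).

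The 19 genes of fatty acid use and the 16 of the lipid droplet had 0 genes with groups apart and medians of -0.15 and -0.19. Single libraries set the sign of these medians, which were 0.16 and 0.02 without KO-1, -0.55 and -0.40 without KO-3, and 0.05 and -0.04 without WT-2. *Abhd5*, a coactivator of fat breakdown, read 76.4 ± 15.0 in KO against 50.2 ± 12.8 CPM in WT (edgeR adjusted p = 0.227). *Plin2*, which coats lipid droplets, read 175 ± 72.2 in KO against 111 ± 35.5 CPM in WT (edgeR adjusted p = 0.365). Of the 10 tested genes of purine nucleotide turnover, 2 were below WT in every KO library (against 8.56% of all genes tested), among them *Adsl*, an enzyme of the same purine nucleotide cycle as AMP deaminase (28.7 ± 1.35 CPM in KO, 35.9 ± 3.01 CPM in WT, edgeR adjusted p = 0.218).

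*Cox6a2*, the heart and skeletal muscle subunit of cytochrome c oxidase, stood out among the 14 genes of muscle mitochondria. It read 8.30, 11.1 and 2.59 CPM in KO, against 0.768, 0.577, 0.158 and 0 CPM in WT, with a log2 fold change of 4.28 (SE 1.18), which missed the threshold in edgeR (adjusted p = 0.181) and passed it in DESeq2 (adjusted p = 0.00212). Like *Mb* and *Ckmt2* it was highest in KO-2 and lowest in KO-3 within KO. The other muscle-type oxidase subunits of the list, named after their values were seen, overlapped between the genotypes: *Cox7a1* had a log2 fold change of -0.09 and *Cox8b* of -0.11. The median of the 14 genes was -0.15, but 0.17 without KO-1, 0.05 without WT-2 and -0.49 without KO-3. *Oxct1*, which starts the use of ketone bodies, was lower in every KO library (337 ± 105 CPM in KO, 497 ± 6.61 CPM in WT, edgeR adjusted p = 0.248). Among 13 regulators of energy use, 0 had groups apart, and the muscle subunit *Prkag3* and the catalytic subunit *Prkaa2* of AMP-activated kinase gave edgeR adjusted p = 0.324 and 0.374. Of 15 listed muscle transcription factors, 10 were tested. The MyoD family was among those too scarce to test: *Myf5* and *Myf6* had 0 counts in every library, and *Myod1* and *Myog* had 0 counts except for 0.0518 CPM of *Myod1* in KO-3 and 0.0608 CPM of *Myog* in KO-1. *Nkx2-5*, not tested either and named after its values were seen, read 0.766 and 1.57 CPM in KO-1 and KO-2. It was at 0 in KO-3 and in every WT library. A count of 0 allows between 0.0364 and 0.047 CPM in these libraries (3 counts, counting error only), if each count stands for a separate read. Whether it does was not determined, and the bound is higher if a read adds several counts. *Srf*, which binds CArG boxes of muscle genes, was lower in every KO library (59.2, 63.6 and 54.5 CPM in KO, 92.0, 84.3, 79.0 and 86.7 CPM in WT, log2 fold change -0.53, edgeR adjusted p = 0.165, DESeq2 2.28e-04), as was *Mef2d* (134 ± 15.3 CPM in KO, 169 ± 3.41 CPM in WT, edgeR adjusted p = 0.209).

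**Figure D5:**
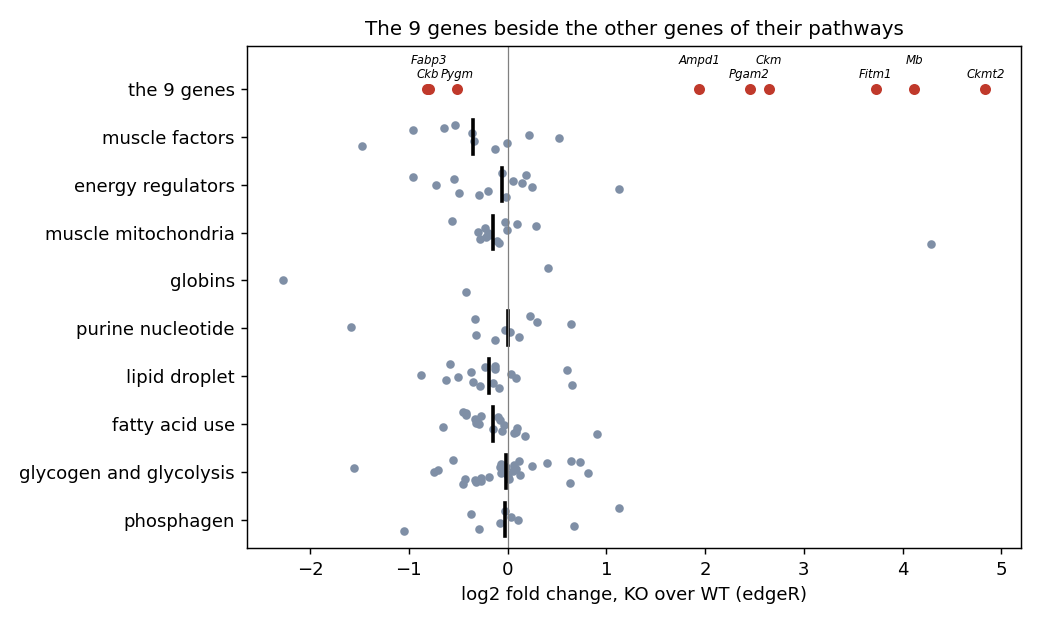
Log2 fold change of KO over WT from edgeR (horizontal axis) for the 9 genes (red, top row) and for the other tested genes of each pathway list (grey points, vertical position within a row has no meaning). A black bar marks the median of each list except that of the globins, which has 3 tested genes. The medians drawn lie between -0.35 and 0.00, and that of the globins is -0.42. *Cox6a2*, at 4.28, is the only grey point above 2.

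By Pearson's r of log2 CPM over the 7 libraries, among 14779 genes with a mean of 1 CPM or more, those most like *Mb* included *Ttn* (0.993), *Ckmt2* (0.984) and *Gtf2e1* (0.980). *Ttn*, the giant spring protein of the sarcomere, read 124, 116 and 18.9 CPM in KO, against 12.4, 6.25, 2.14 and 2.43 CPM in WT. The genes most like *Ckm* were *Col10a1* (0.974), *C1qtnf5* (0.968), *Lamp2* (0.968) and *Ccng1* (0.964), of which *Col10a1*, a collagen of hypertrophic cartilage, read 114, 32.7 and 78.1 CPM in KO and 0.486 CPM or less in WT. Those most like *Ckb* included *Fndc10* (0.996), *Mtss1l* (0.992) and *Emid1* (0.988), and *Fndc10* read 2.58, 4.27 and 2.93 CPM in KO, against 6.36, 6.46, 9.37 and 5.87 CPM in WT. These r are descriptions over 7 libraries that fall into 2 genotypes and share their tissue makeup.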

How the data were processed

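RNA of 7 mouse aorta libraries was sequenced. Their values are whole-number estimated counts, used as the authors deposited them, without scaling. The submitters' processing notes name the builds GRCm38 and mm10. How reads were aligned, counted and assigned to a strand is not given in the sources used here, so reads of genes that overlap on opposite strands may not be told apart. Values between 8 and 40 fell on multiples of 4 between 1.25 and 1.38 times as often as on their neighbours, so totals are counts as given, not reads. Of 47729 identifiers, 47224 matched a symbol.

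Genotypes were compared with edgeR 4.0.16 in R 4.3.3 (filterByExpr, TMM, quasi-likelihood fit and test over all 7 libraries, Benjamini-Hochberg adjustment over 19188 genes, threshold 0.05). The SE given with a log2 fold change is its absolute value divided by the square root of the F statistic of that test. It therefore holds the same information as the test, and for the 9 genes nothing is read from it. Levels of different genes are set side by side as CPM per kilobase of the APPRIS principal transcript (GENCODE M21, GRCm38, 1-based coordinates). The 9 genes and all lists were chosen with earlier results of these data known. The rule for other names took the related forms of the 9 genes, the 3 genes with the smallest p of each pathway list, the 2 most abundant of each marker list and the 4 genes most like *Ckm*, *Ckb* and *Mb*, and some of these are not reported here. No library was a duplicate of another (mean chi-square per gene 24.8 or more). The procedure was also run on simulated counts, but the outcome is not reported here and nothing is read from it. Alternatives were DESeq2 1.42.0, limma-voom 3.58.1 with sample quality weights throughout, other scalings and filters, counts divided by 4 and a legacy fit. Further ones were removal of striated muscle markers, a replicate block and each library left out. Chosen after seeing the data were KO-3 alone against WT, KO-1 and KO-2 against WT-1, WT-2 and WT-4, the 6 libraries of the replicate block without the block, and exon union lengths. So was the skeletal marker sum without *Casq1*.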

Additional observations from a re-analysis of the deposited data

Results flagged for a closer look

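In the 42 quantities checked within the 4 WT libraries, 6 had a library far from the others by Dixon's criterion at 95%, which flags about 1 group in 20 by chance. The CPM of *Fabp3* was 131.4 in WT-2, against 69.74 to 74.18 CPM in the other WT libraries. The CPM of *Ampd1* was 0.535 in WT-2, against 0.0679 or less in the others, and its share per length was 1.125% of *Ampd1* and *Ampd2* and 3.521% of *Ampd1* and *Ampd3* in that library, against 0.146% or less and 0.539% or less. The CPM of *Ckmt1* was 7.314 in WT-3, against 0.422 to 1.02, and the nerve and glia markers summed to 1513 CPM in the same library, against 37.42 to 60.51. The cause of these values was not tested.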

How the results depend on the processing

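Most of the 9 genes had groups without overlap, and the set was chosen by this same contrast. Their signs could therefore hardly change, and the next count is a description, not a test. Under all alternatives tried, 175 of 177 fold changes of the 9 genes kept their sign. The 2 exceptions were *Ampd1* without KO-3 (-0.458, highest 2.5 without KO-2) and with KO-1 and KO-2 against WT-1, WT-2 and WT-4 (-0.868), and the cause was not tested. The median of the 9 genes was 2.2 in that fit of 5 libraries, 2.86 with limma-voom and 2.25 with the replicate block. The number of genes called higher and lower, 3 and 0 in edgeR, was 1020 and 586 with DESeq2, 31 and 14 with KO-3 alone, 7 and 0 with limma-voom, with counts divided by 4 and with the filter of 50 counts in 3 libraries, and 0 and 0 without a filter and for KO-1 and KO-2 against WT-1, WT-2 and WT-4. With 1 library left out it ranged between 0 and 667 higher and between 0 and 362 lower, both maxima without KO-2. Deviations of KO and WT libraries with the same replicate number were hardly correlated for numbers 1 and 2 (0.054 and 0.069). For number 3 the correlation was 0.34, and KO-3 and WT-3 had the highest nerve marker sums, 229 and 1513 CPM. Whether the numbers stand for pairs is not known. With the replicate block over these numbers 0 genes were called in either direction, as over the same 6 libraries without it.

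Of the pathway genes, DESeq2 called 2 higher and 5 lower, and with 1 library left out edgeR called between 0 and 3 lower. Groups apart, higher and lower, were 41 and 22 genes with KO-3 alone, 8 and 30 with KO-1 and KO-2, and 5 higher over numbers 1 to 3 with or without the replicate block. They ranged between 3 and 12 higher and 11 and 17 lower with 1 library left out. Fewer libraries leave more groups apart in any set of genes. KO-3 was above every WT library for 25.4% of all genes tested. For the other sets of libraries the share over all genes is not given, so nothing is read from these counts. The median of the phosphate transfer list, near 0, was 0.257 for KO-1 and KO-2 against WT-1, WT-2 and WT-4, 0.129 with limma-voom, and between -0.136 and 0.256 with 1 library left out. That of the muscle factors was 0.222 in the first of these fits and -0.127 without a filter. With 1 library left out, medians also changed sign for fatty acid use (-0.546 to 0.156), the lipid droplet (-0.404 to 0.0244), muscle mitochondria (-0.489 to 0.171), glycogen use and glycolysis (-0.177 to 0.0619), purine turnover (-0.103 to 0.162) and energy regulators (-0.331 to 0.0484), and the first 3 were 0.326, 0.129 and 0.388 with KO-3 alone. KO-3 alone is assumed to vary like WT. Depth limits *Fitm1* in WT (4 or 5 counts) and *Ampd1*, and 3 KO libraries of unlike tissue makeup limit all group values.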
